A study of Mus musculus with 8 samples.

Results

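The genes described here are 10 cytokine genes of the interleukin-6, interleukin-12 and interleukin-15 families and the colony-stimulating factors: Il6, Lif, Il11, Il12b, Il27, Il15, Il15ra, Csf1, Csf2 and Csf3. They were named by symbol, a choice made with earlier results of these data known, and all 10 were found among the 54532 gene identifiers counted in each library. Islets are clusters of endocrine cells within the pancreas, and they also hold vessels, stroma and resident macrophages. Here they were taken from wild-type and Sting-/- mice aged 25 to 30 weeks, rested overnight in RPMI1640 medium and then kept for 3 h with DMSO, the solvent, or with 50 µg/mL DMXAA, a small-molecule agonist that activates mouse STING, an adaptor protein of cytosolic DNA sensing. Crossing genotype and treatment gave 4 groups of 2 libraries, with 15624020 to 19601850 counts each.

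The labels give no allele beyond Sting-/-, no sex and no statement on whether the islets of a library came from 1 mouse or a pool, so the spread between the 2 libraries of a group may be technical. Sting1 had 39 and 41 counts in DMSO libraries of wild-type islets against 48 and 19 in those of Sting-/- islets, and with DMXAA 23 and 39 against 35 and 27. The transcript was thus not lower under the knockout label (log2 difference under DMSO 0.03 ± 0.47 SE, adjusted p = 0.984 by edgeR's quasi-likelihood test), and those libraries are called knockout-labelled. The deleted part of the gene is not stated, so this comparison does not check the genotype. Markers of the labelled tissue were high throughout: 8 beta cell genes summed to between 162200 and 322500 CPM (counts set to the same total per library after TMM scaling) and 6 alpha and delta cell genes to between 16260 and 27140 CPM.

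IL-6, LIF and IL-11 signal through receptors that share the chain gp130 (Il6st), which activates JAK kinases and the transcription factor STAT3. Il12b encodes the p40 subunit shared by IL-12 and IL-23, and Il27 encodes the p28 subunit of IL-27, a cytokine of the same wider family. IL-15 is held on the cell surface by its receptor chain Il15ra and presented to lymphocytes that carry Il2rb and Il2rg. The colony-stimulating factors CSF1 (M-CSF), CSF2 (GM-CSF) and CSF3 (G-CSF) support macrophages, dendritic cells and neutrophils. STING activates the kinase TBK1, which leads to the factors IRF3 and NF-kB, and both kinds of factor act on cytokine promoters. In islets, IL-6 and its relatives are known as products of stressed endocrine, stromal and immune cells.

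RefSeq promoter entries (build GRCm38.p6, a patch release of the assembly that mm10 names) matched 7 of the 10 genes, while Il15, Il27 and Csf3 had none. Within the 250 bases before each start, the NF-kB consensus, the ISRE core (2 copies of GAAA that are 2 bases apart), the AP-1 site TGANTCA and the CRE site TGACGTCA were searched on both strands. Il6 and Csf1 each held 1 NF-kB match, which 3.90% of 32851 promoter windows of that length held. Lif, Il6, the second Il11 start and the second Il15ra start each held 1 AP-1 match, found in 6.75% of windows. None of the windows of the 7 genes held an ISRE core (2.98% of all windows) or a CRE site (1.55%). The Csf2 window (chr11:54249900-54250149, minus strand) lay upstream of the gene start given below, base 54249667. The bases next to that start were thus not searched. The 4 windows below were picked among the 7 genes. Il6 and Csf1 are those with an NF-kB match, and Lif and Il11 are further gp130 ligands with an AP-1 match. Capitals mark the NF-kB match in Il6 (bases -44 to -35) and in Csf1 (-154 to -145, on the reverse strand), and the AP-1 match in Il6 (-249 to -243), Lif (-228 to -222) and Il11 (-98 to -92). They read 5′ to 3′ on the gene's strand at chr5:30012864-30013113 (plus strand) for Il6, chr3:107760470-107760719 (minus) for Csf1, chr11:4257318-4257567 (plus) for Lif and chr7:4778142-4778391 (minus) for Il11. A match describes letters only, and binding was not measured.
Il6: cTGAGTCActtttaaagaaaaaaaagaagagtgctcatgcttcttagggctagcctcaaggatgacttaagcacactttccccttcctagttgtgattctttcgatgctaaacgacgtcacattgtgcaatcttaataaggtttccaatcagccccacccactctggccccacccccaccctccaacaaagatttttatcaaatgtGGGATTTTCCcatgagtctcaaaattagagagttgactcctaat
Csf1: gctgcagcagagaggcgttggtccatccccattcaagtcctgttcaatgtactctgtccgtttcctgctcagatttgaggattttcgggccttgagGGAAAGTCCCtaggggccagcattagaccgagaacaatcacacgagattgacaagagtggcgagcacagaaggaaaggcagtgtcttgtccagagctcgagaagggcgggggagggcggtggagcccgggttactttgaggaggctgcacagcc
Lif: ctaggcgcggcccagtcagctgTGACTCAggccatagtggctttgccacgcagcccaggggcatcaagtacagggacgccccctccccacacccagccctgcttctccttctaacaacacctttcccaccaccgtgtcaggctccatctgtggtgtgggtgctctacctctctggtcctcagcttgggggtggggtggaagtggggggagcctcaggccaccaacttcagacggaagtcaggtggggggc
Il11: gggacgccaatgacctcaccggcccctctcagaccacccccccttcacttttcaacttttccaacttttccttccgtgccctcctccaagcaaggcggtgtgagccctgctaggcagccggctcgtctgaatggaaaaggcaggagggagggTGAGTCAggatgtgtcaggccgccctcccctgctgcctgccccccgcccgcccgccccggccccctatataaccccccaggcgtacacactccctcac

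Resting islets after overnight culture already carried several of these transcripts. Per kilobase of exon, in wild-type DMSO islets, Il11 was the most abundant at a mean of 23.7 CPM per kb, followed by Il6 at 14.7 and Lif at 11.98. Csf1 stood at 3.85 and Il15ra at 2.64 CPM per kb. The remaining 5 lay far lower, with Csf3 at 0.251, Il15 at 0.227, Il12b at 0.120, Csf2 at 0.0329 and Il27 at 0.0241 CPM per kb. Library by library, Il11 (23.4 and 24.1) was above Il6 (15.9 and 13.6), and Il6 was above Lif (10.6 and 13.3), although its lower library and the higher Lif library were close. Csf1 (3.69 and 4.02) and Il15ra (2.47 and 2.80) did not overlap either. From Csf3 down to Il27 each neighbour overlapped the next, so their order was not resolved. The order over the 5 most abundant genes was the same in knockout-labelled DMSO islets, at 19.0, 14.7, 11.2, 4.38 and 2.40 CPM per kb. With DMXAA, Il6 led in wild-type islets at 39.0 CPM per kb, where its libraries (26.7 and 51.2) overlapped those of Il11 (8.38 and 32.0).

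**Figure D1:**
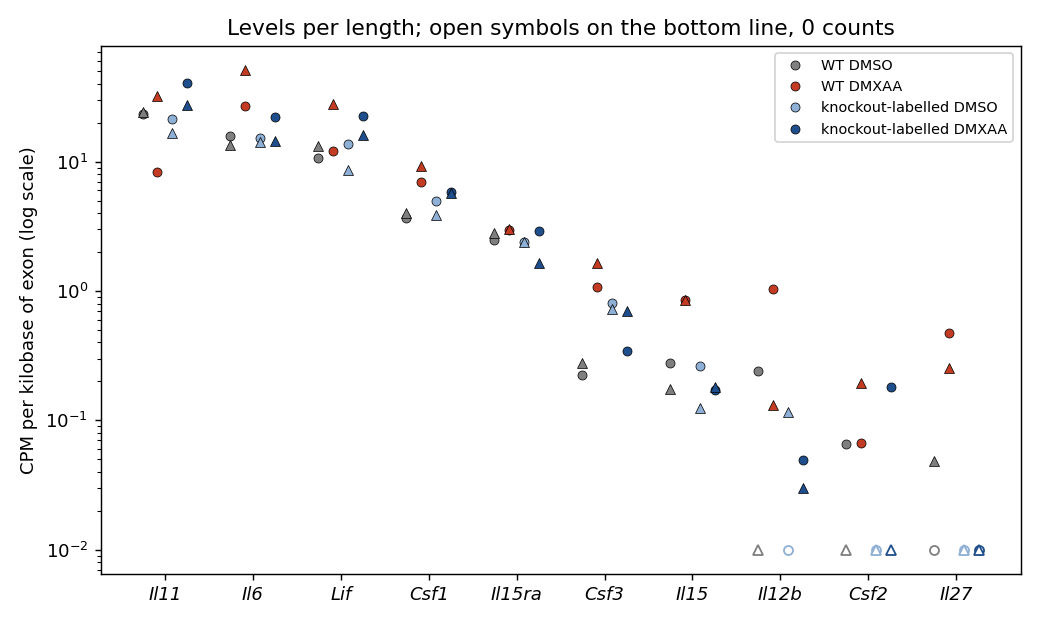
Levels of the 10 cytokine genes in CPM per kilobase of exon, on a log scale, with 1 symbol per library (circle, replicate 1, triangle, replicate 2) coloured by group; open symbols on the bottom line are libraries with 0 counts. Il11, Il6 and Lif lie between about 8 and 51 CPM per kb in every group, and Il12b, Csf2 and Il27 include libraries at 0.

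In wild-type islets DMXAA raised Csf1 and Csf3. Of the 10 genes, 2 were called higher and 0 lower, against 1.11% and 0.375% of the 17055 genes tested. Il6, Lif, Il11, Il15 and Il15ra were tested and not called, and Il12b, Il27 and Csf2 were too low to be tested. A gene was called at a Benjamini-Hochberg adjusted p under 0.05 over all genes tested, in an edgeR quasi-likelihood fit to all 8 libraries. Without wild-type DMSO replicate 1 none of the 10 was called, and without wild-type DMXAA replicate 2 the only one was Il11, lower.

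Among the gp130 ligands, Il6 (ENSMUSG00000025746, mm10 chromosome 5, 30013114 to 30019981, plus strand) encodes interleukin-6, an inflammatory cytokine. It stood at 38.6 and 32.9 CPM with DMSO and 64.9 and 124 with DMXAA in wild-type islets, and 36.7 and 34.4 with DMSO and 53.8 and 35.4 with DMXAA in knockout-labelled islets. Both wild-type DMXAA libraries were above every other library. Wild-type DMXAA libraries lay above wild-type DMSO without overlap for 22.5% of tested genes. The log2 fold change with DMXAA was 1.41 ± 0.29 (SE) in wild-type islets, which missed the threshold with edgeR's adjusted p = 0.0573. DESeq2 called it (adjusted p = 1.54e-05), as did edgeR without wild-type DMXAA replicate 1 (log2 1.80, adjusted p = 0.000745), and over all alternatives the adjusted p ran from 1.54e-05 to 0.452. In knockout-labelled islets the groups overlapped and the log2 fold change was 0.33 ± 0.29.

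Lif (ENSMUSG00000034394, chromosome 11, 4257557 to 4272514, plus strand) encodes leukemia inhibitory factor. Its levels were 46.2 and 58.1 CPM with DMSO and 53.0 and 122 with DMXAA in wild-type islets, and 59.9 and 37.5 with DMSO and 98.1 and 69.6 with DMXAA in knockout-labelled islets. Only 1 of the wild-type DMXAA libraries was above both wild-type DMSO libraries, whereas both knockout-labelled DMXAA libraries were above their DMSO pair, as for 18.1% of tested genes. The log2 fold changes were alike in size, 0.74 ± 0.43 in wild-type (adjusted p = 0.528) and 0.79 ± 0.43 in knockout-labelled islets (adjusted p = 0.803), and neither passed edgeR's test. Their difference was 0.04 ± 0.60 on the log2 scale.

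Il11 (ENSMUSG00000004371, chromosome 7, 4772373 to 4782859, minus strand) encodes interleukin-11, a stromal cytokine. Levels were 48.6 and 50.1 CPM with DMSO and 17.4 and 66.7 with DMXAA in wild-type islets, and 44.2 and 34.9 with DMSO and 84.4 and 57.3 with DMXAA in knockout-labelled islets. The 2 wild-type DMXAA libraries lay on either side of the DMSO libraries, 1 below and 1 above. The fitted change was -0.23 ± 0.63 on the log2 scale (adjusted p = 0.916 by edgeR), and it depended on the library kept: 0.44 without replicate 1 of wild-type DMXAA and -1.50 without replicate 2, where it was called lower (adjusted p = 0.0142). Over all alternatives the adjusted p ran from 0.0142 to 1. In knockout-labelled islets the log2 fold change was 0.84 ± 0.64 (adjusted p = 0.904), with no overlap between the groups, as for 18.1% of tested genes.

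These 3 ligands shared a gap between the wild-type DMXAA replicates. Replicate 2 exceeded replicate 1 by 1.92 times for Il6, 2.29 times for Lif and 3.82 times for Il11. Over 14424 genes with a mean of at least 1 CPM, the higher replicate of that group exceeded the lower by a median of 1.11 times, and the 90th percentile was 1.49. Csf3 was at 1.55 times, also past that percentile, Csf1 at 1.33, Il15ra at 1.02 and Il15 at 1.01. The gap was not confined to these ligands. Among STAT3 target genes, Lrg1 was at 3.18 and 12.1 CPM and Lcn2 at 9.31 and 30.4 CPM in these replicates. Others of that kind were close between them, such as Junb at 318 and 349 CPM and Pim1 at 22.3 and 19.6 CPM. Between the same replicates the summed level of 10 fibroblast and stellate markers was 105 and 166 CPM, that of 10 acinar markers 1405 and 2595 CPM, and that of 12 macrophage markers 72.3 and 71.3 CPM. Their part in the gap was not tested.

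**Figure D2:**
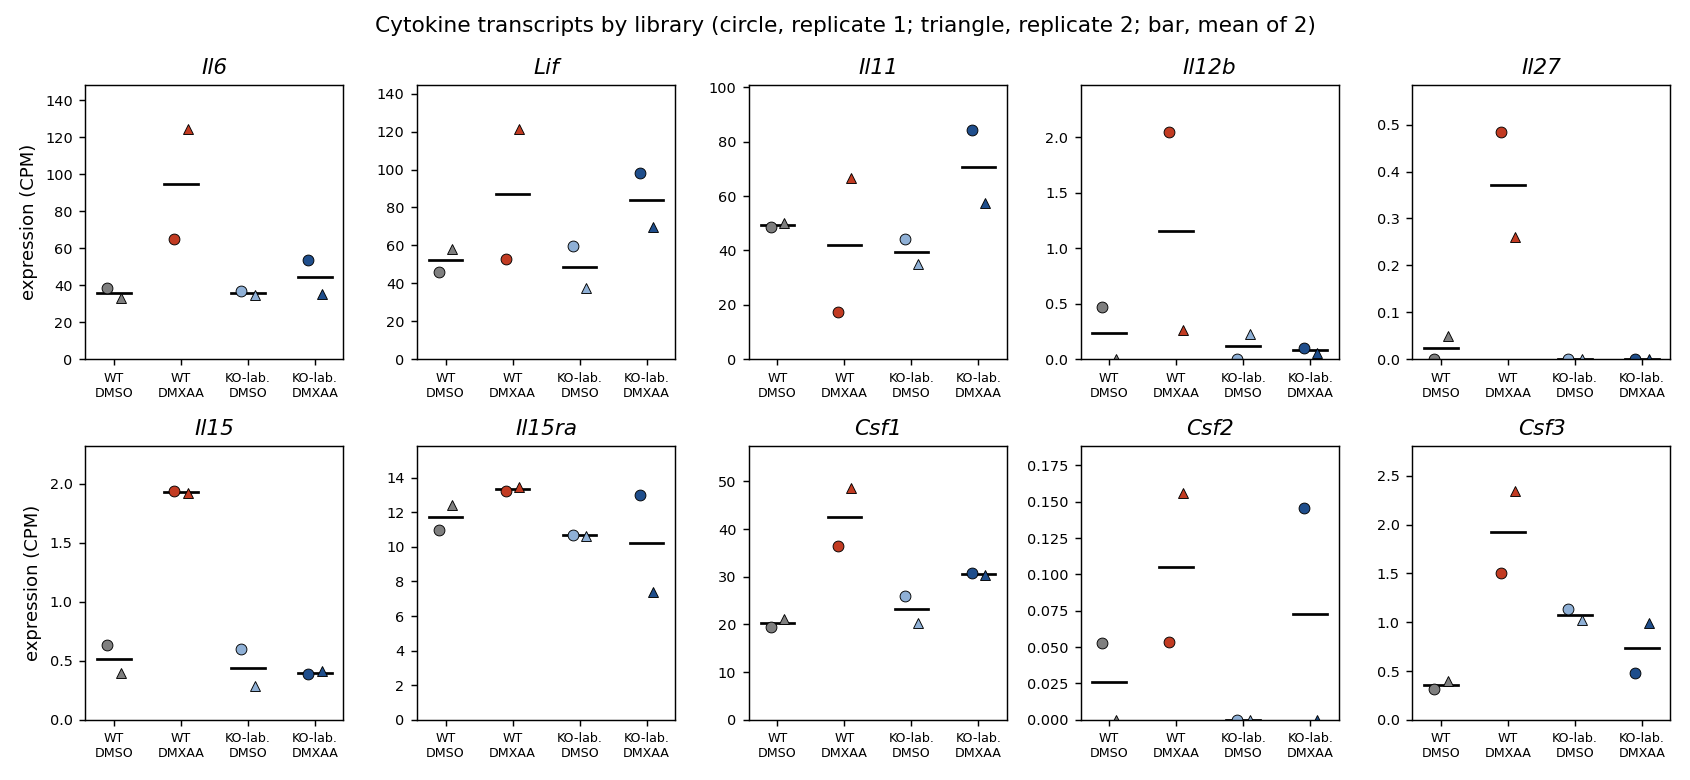
Expression in CPM of the 10 cytokine genes, each on its own axis from 0, by group, with a circle for replicate 1, a triangle for replicate 2 and a bar for the mean of 2. For Il6, Il15, Il15ra, Il27, Csf1 and Csf3 both wild-type DMXAA libraries lie above all 6 others, while for Il11 they lie at 17.4 and 66.7 CPM on either side of wild-type DMSO. Of all tested genes, 22.5% had them above wild-type DMSO alone, and the share above all 6 others was not computed.

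Il15 (ENSMUSG00000031712, chromosome 8, 82331632 to 82403222, minus strand) was scarce and close to even between replicates with DMXAA. Its counts were 12 and 8 with DMSO and 36 and 37 with DMXAA in wild-type islets, and 9 and 5 with DMSO and 8 and 7 with DMXAA in knockout-labelled islets. As CPM these were 0.631 and 0.394, 1.94 and 1.93, 0.600 and 0.283, and 0.387 and 0.410. The wild-type DMXAA pair was above the other 6 libraries. Over all tested genes, 22.5% had that pair above wild-type DMSO. In wild-type islets the log2 fold change with DMXAA was 1.91 ± 0.48, not called by edgeR (adjusted p = 0.0921). Il15ra (ENSMUSG00000023206, chromosome 2, 11705290 to 11734317, plus strand), the chain that presents IL-15, was higher than Il15 per kilobase in every library. It stood at 10.99 and 12.5 CPM with DMSO and 13.2 and 13.5 with DMXAA in wild-type islets, and 10.7 and 10.6 with DMSO and 13.02 and 7.37 with DMXAA in knockout-labelled islets. Its log2 fold changes with DMXAA were 0.19 ± 0.24 in wild-type and -0.05 ± 0.25 in knockout-labelled islets, neither called. Per kilobase of exon, the mean of Il15ra in wild-type DMXAA islets was 3.00 CPM per kb and that of Il15 was 0.854.

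Csf1 (ENSMUSG00000014599, chromosome 3, 107741048 to 107760469, minus strand) encodes the growth factor of macrophages. It was at 19.5 and 21.2 CPM with DMSO and 36.5 and 48.6 with DMXAA in wild-type islets, and 26.0 and 20.3 with DMSO and 30.7 and 30.4 with DMXAA in knockout-labelled islets. Both DMXAA groups were above their DMSO groups without overlap. Of all tested genes, 22.5% were so placed in wild-type and 18.1% in knockout-labelled islets. The wild-type rise was 2.09-fold (log2 1.06 ± 0.18, edgeR adjusted p = 0.00687, both libraries higher). Leaving out wild-type DMSO replicate 1 (adjusted p = 0.0744) or wild-type DMXAA replicate 2 (0.161) ended the call, and over all alternatives the adjusted p ran from 5.35e-05 to 0.161. In knockout-labelled islets the log2 fold change was 0.40 ± 0.19 (unadjusted p = 0.0485, adjusted p = 0.680 by edgeR).

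Csf3 (ENSMUSG00000038067, chromosome 11, 98701263 to 98703629, plus strand) encodes the growth factor of neutrophils. Counts were 6 and 8 with DMSO and 28 and 45 with DMXAA in wild-type islets, and 17 and 18 with DMSO and 10 and 17 with DMXAA in knockout-labelled islets. In CPM the groups averaged 0.355 ± 0.055, 1.93 ± 0.59, 1.08 ± 0.08 and 0.740 ± 0.361 (SD, n = 2 each). The wild-type rise with DMXAA was 5.34-fold (log2 2.42 ± 0.55, edgeR adjusted p = 0.0474, both libraries higher). This call was close to the threshold: DESeq2 gave an adjusted p of 0.0527 and limma-voom 0.118, and 6 of the 8 fits that left out a library did not call it. Its adjusted p over the alternatives ran from 0.0129 to 0.415. With knockout-labelled islets the direction differed, at -0.57 ± 0.55 (adjusted p = 0.930), and their DMSO libraries were above the wild-type DMSO libraries without overlap, as were those of 24.3% of tested genes.

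Il12b, Il27 and Csf2 were near the limit of detection, where 3 counts over a group correspond to 0.0763 to 0.0919 CPM. Il27 (ENSMUSG00000044701, chromosome 7, 126589010 to 126594941, minus strand) was read 0 and 1 times in the wild-type DMSO pair, 9 and 5 times in the wild-type DMXAA pair and not at all in the 4 knockout-labelled libraries. The wild-type ratio was 14.6 with a 95% exact counting interval of 2.22 to 616. Under DMXAA the wild-type level was 4.66 times the floor of 3 counts over the knockout-labelled group. That ratio leaves out the counting error of the wild-type reads. With no filter on low counts, edgeR did not call this contrast (log2 -5.82 ± 1.98, adjusted p = 0.171). Il27 overlaps the antisense gene Apobr over 103 exon bases, and the strand setting of the counting is not known, so reads in that stretch cannot be told apart. In wild-type islets Apobr had 10 and 30 counts under DMSO and 11 and 29 under DMXAA.

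Il12b (ENSMUSG00000004296, chromosome 11, 44400063 to 44414033, plus strand) had 9 and 0 counts in DMSO libraries and 38 and 5 in DMXAA libraries of wild-type islets, and 0 and 4 with DMSO and 2 and 1 with DMXAA in knockout-labelled islets. A single library, wild-type DMXAA replicate 1, thus held most of its reads, and the wild-type groups overlapped. The ratio of the wild-type sums was 4.97 with an interval of 2.39 to 11.6, which covers counting error only. With no filter on low counts, edgeR gave it a log2 fold change of 2.30 ± 0.94 (adjusted p = 0.483) and Il27 one of 3.57 ± 1.43 (adjusted p = 0.414). Csf2 (ENSMUSG00000018916, chromosome 11, 54247271 to 54249667, minus strand) had 1 and 0, 1 and 3, 0 and 0, and 3 and 0 counts in the same order of groups, too few for any comparison. A partner subunit was scarcer still in the case of IL-12, since Il12a was at 0 counts in 7 of the 8 libraries. Il23a, the partner in IL-23, was at 0.368 and 0.640 CPM in wild-type DMSO and 1.24 and 1.20 CPM in wild-type DMXAA libraries (log2 1.25 ± 0.54, edgeR adjusted p = 0.397). Ebi3, the partner in IL-27, was between 0.861 and 2.00 CPM over the 8 libraries.

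In knockout-labelled islets none of the 10 genes was called with DMXAA by edgeR, DESeq2 or limma-voom, against 0.375% of all genes tested by edgeR. Limma-voom called 0 of all genes in this contrast, so its result says nothing about the cytokines in particular. At an unadjusted p under 0.05 edgeR had 1, Csf1, against 7.3% of all genes. The difference between the 2 DMXAA effects, tested as an interaction, was also called for none of the 10 by any of the 3 tools, against 1.2% of all genes. At an unadjusted p under 0.05, which 8.71% of all genes passed, there were 4 of the 7 tested: Csf3 (log2 difference, knockout-labelled minus wild-type effect, -2.99 ± 0.79, adjusted p = 0.129), Il15 (-2.02 ± 0.90, adjusted p = 0.547), Il6 (-1.08 ± 0.41, adjusted p = 0.469) and Csf1 (-0.66 ± 0.26, adjusted p = 0.448). The wild-type calls of Csf1 and Csf3 were therefore not shown to differ from the knockout-labelled effects. Il11 had a positive difference of 1.07 ± 0.90, which without wild-type DMXAA replicate 2 became 2.34 and was called (adjusted p = 0.00341, range over alternatives 0.00341 to 1).

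**Figure D3:**
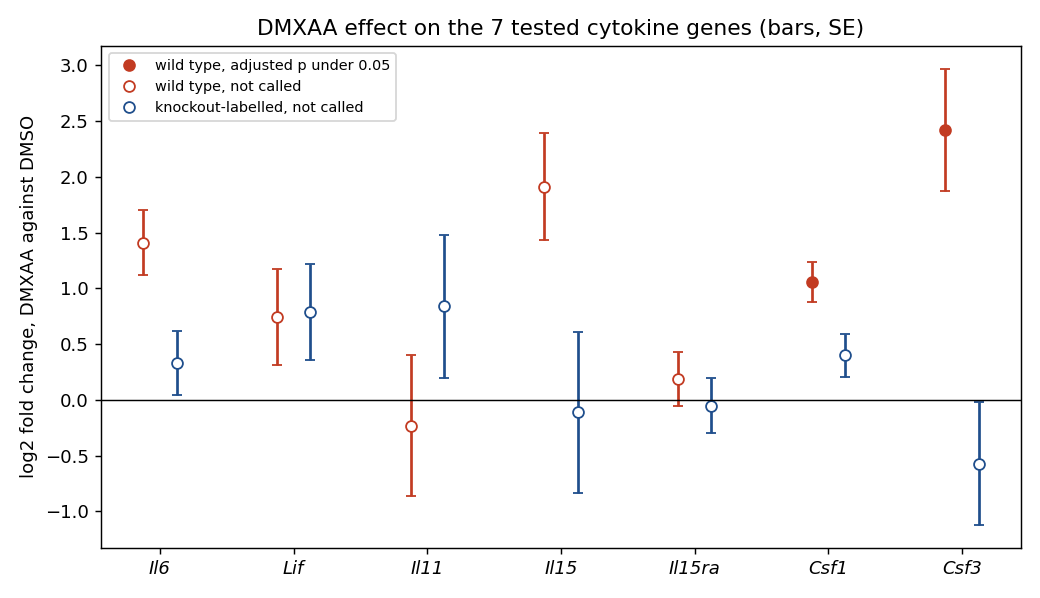
Log2 fold change of DMXAA against DMSO in wild-type (red) and knockout-labelled (blue) islets for the 7 tested cytokine genes, with bars for the SE and filled symbols for an adjusted p under 0.05. Csf1 at 1.06 and Csf3 at 2.42 in wild-type islets are the filled points, and Lif has nearly the same value under both genotype labels.

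Between genotype labels under DMSO, none of the 10 was called by edgeR, DESeq2 or limma-voom, against 0.223% of genes tested by edgeR. Csf3 alone was under an unadjusted p of 0.05, as were 12.3% of all genes, at 1.57 ± 0.63 on the log2 scale (adjusted p = 0.350). Under DMXAA Il15 was lower in knockout-labelled islets, by 2.26 ± 0.52 on the log2 scale (a 4.79-fold lower level, edgeR adjusted p = 0.0354, both libraries lower). It was 1 of the 10, against 1.37% of all genes called lower. The call was lost with DESeq2 (adjusted p = 0.0802), limma-voom (0.0683) and in 6 of the 8 fits that left out a library, over a range of 0.0148 to 0.200. Il6 was 2.12-fold lower (log2 -1.08 ± 0.29, edgeR adjusted p = 0.116), a difference that DESeq2 called (adjusted p = 0.00195, range over alternatives 0.00195 to 0.550). Il6, Il15, Il15ra, Csf1 and Csf3 all had knockout-labelled DMXAA libraries below the wild-type ones without overlap, as did 21.0% of all genes tested. Without wild-type DMXAA replicate 2, Il11 was called higher (log2 2.02, adjusted p = 0.00120). These contrasts share the wild-type DMXAA libraries with the treatment contrast, so their values are not separate evidence. In this contrast 8 of the 12 endothelial markers were called higher in knockout-labelled islets and 1 of the 12 macrophage markers. Of all 17055 genes, 407 were called here in either direction. The part of these markers in the result was not tested.

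Summed RNA of marker genes of other cell types was compared between the groups. Over all genes, edgeR called 1.11% higher and 0.375% lower with DMXAA in wild-type islets. In knockout-labelled islets it called 0.375% in either direction. The summed level of 12 macrophage markers was 113 and 77.5 CPM under DMSO and 72.3 and 71.3 under DMXAA in wild-type islets. In knockout-labelled islets it was 99.9 and 98.7 with DMSO and 91.0 and 176 with DMXAA. None of these markers was called with DMXAA in either genotype. Endothelial markers (12 genes) ran from 921 to 1175 CPM in wild-type DMSO, 728 to 762 in wild-type DMXAA, 792 to 870 in knockout-labelled DMSO and 1328 to 1458 in knockout-labelled DMXAA libraries, with 3 called lower in the wild-type and 3 called higher in the knockout-labelled treatment contrast. The fibroblast and stellate sum of 10 genes ranged from 141 to 324, 105 to 166, 105 to 107 and 178 to 218 CPM in these groups, with 0 called in either treatment contrast. For the 10 acinar markers the ranges were 1233 to 5997, 1405 to 2595, 1405 to 2081 and 325 to 376 CPM, with 0 called. All 10 had negative log2 fold changes with DMXAA, with medians of -0.85 in wild-type and -2.89 in knockout-labelled islets. At an unadjusted p under 0.05 edgeR had 0 and 8 of them, against 11.9% and 7.3% of all genes. Lymphocyte markers (12 genes, 7 tested) were at 2.95 to 8.68, 2.53 to 3.80, 36.0 to 36.9 and 4.84 to 10.5 CPM. Of the 7 tested, 3 were called lower with DMXAA in knockout-labelled islets. Dendritic cell markers (8 genes, 4 tested) were at 10.6 to 16.9, 6.84 to 7.18, 14.6 to 17.1 and 11.9 to 12.5 CPM. Of the 4 tested, 1 was called lower in each treatment contrast. The 7 neutrophil markers summed to at most 2.10 CPM in any library, and the 7 duct markers to between 778 and 1713 CPM. Defining markers at 0 in all libraries were Cd209a, Ncr1, Ly6g and Retnlg. In bulk RNA, fewer cells of a type and less RNA per cell cannot be told apart, and the part of these markers in the cytokine values was not tested.

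The receptor side was examined with 17 chain genes, of which 13 were tested. In the wild-type treatment contrast 0 rose and 2 fell, against 1.11% and 0.375% of all genes tested. The median log2 fold change was -0.18 over the 13, beside 0 over all genes. Csf2rb, the shared signalling chain of the GM-CSF, IL-3 and IL-5 receptors, fell from 9.10 and 5.02 CPM to 1.72 and 2.13 CPM (log2 -1.86 ± 0.36, edgeR adjusted p = 0.0169). Its close copy Csf2rb2 fell from 4.89 and 4.58 CPM to 1.62 and 1.61 CPM (log2 -1.55 ± 0.31, adjusted p = 0.0199). The copies are near-identical, so the split of reads between them is uncertain, and neither gene was called once wild-type DMSO replicate 1 was left out (adjusted p = 0.249 and 0.136), nor without wild-type DMXAA replicate 1 (0.182 and 0.186) or 2 (0.0987 and 0.191). Csf2rb2 also missed the threshold without either knockout-labelled DMSO library (0.0519 and 0.0527). Csf2ra, the chain specific to GM-CSF, was at 71.4 and 96.0 CPM in wild-type DMSO and 107 and 104 CPM in wild-type DMXAA libraries, and was not called (log2 0.34 ± 0.19, adjusted p = 0.496). Csf1r, the receptor of CSF1 and a macrophage marker, went from 12.2 and 6.59 to 5.17 and 3.23 CPM while its ligand rose (log2 -1.16 ± 0.34, edgeR adjusted p = 0.190, not called). The 12 macrophage markers, Csf1r among them, had a median log2 fold change of -0.47 in this contrast, and their part in the receptor values was not tested.

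No gp130 receptor chain was called in either treatment contrast. Il6st, the shared chain, was at 170 and 166 CPM in wild-type DMSO and 136 and 157 CPM in wild-type DMXAA libraries (log2 -0.20 ± 0.15, adjusted p = 0.603 by edgeR). Il6ra was between 66.6 and 86.1 CPM over the 8 libraries, Lifr between 50.4 and 91.8 CPM and Il11ra1 between 15.9 and 19.7 CPM. Cntfr, the chain for CNTF, ran from 34.5 to 75.6 CPM. Osmr, the chain for oncostatin M, varied more, at 19.2 and 13.3 CPM with DMSO and 17.9 and 22.4 with DMXAA in wild-type islets, and 6.14 and 8.04 with DMSO and 13.9 and 10.2 with DMXAA in knockout-labelled islets. Its difference between genotype labels under DMSO was -1.19 ± 0.25 on the log2 scale (adjusted p = 0.0980 by edgeR, 0.00649 by DESeq2 and 0.155 by limma-voom). Il2rb and Il2rg, the chains through which IL-15 signals, were at most 2.15 and 3.00 CPM in any library. Csf3r, the receptor of CSF3, was between 0.600 and 0.936 CPM.

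The other ligands of these families, 16 genes with 8 tested, had 0 calls in the wild-type treatment contrast by edgeR, DESeq2 or limma-voom, and 3 at an unadjusted p under 0.05 by edgeR, against 11.9% of all genes. Their median log2 fold change was 0.09. Tslp, a cytokine of epithelial cells, had the smallest p, at 0.579 and 0.344 CPM in wild-type DMSO and 1.40 and 1.35 CPM in wild-type DMXAA libraries (log2 1.57 ± 0.53, adjusted p = 0.277). Osm, oncostatin M, was next with 0.947 and 0.541 CPM against 0.0538 and 0.208 CPM (log2 -2.42 ± 0.84, adjusted p = 0.297).

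Downstream of the receptors, 19 genes for JAK kinases, STAT factors and their brakes were all tested. With DMXAA in wild-type islets 2 rose and 0 fell (median 0.05), against 1.11% and 0.375% of all genes. Socs1, a feedback inhibitor of JAK kinases, rose from 0.999 and 1.57 to 11.9 and 8.79 CPM (log2 2.99 ± 0.40, edgeR adjusted p = 0.000788). Stat2, a factor that carries interferon signals, rose from 66.8 and 80.9 to 169 and 196 CPM (log2 1.30 ± 0.20, adjusted p = 0.00280, but 0.0794 without wild-type DMSO replicate 1). Stat3, the main factor of gp130 receptors, was at 515 and 430 CPM in wild-type DMSO libraries and at 447 and 481 CPM in their DMXAA counterparts (log2 -0.03 ± 0.15, adjusted p = 0.961). Socs3, the gp130 brake that STAT3 induces, was at 77.0 and 108 CPM and at 79.0 and 150 CPM (log2 0.31 ± 0.26, adjusted p = 0.650).

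Of 15 genes known as STAT3 targets, 1 rose and 1 fell with DMXAA in wild-type islets, against 1.11% and 0.375% of all genes. Their median was 0.32. Icam1, an adhesion molecule that NF-kB and interferon also induce, went from 7.57 and 9.64 to 16.9 and 20.1 CPM (log2 1.10 ± 0.22, edgeR adjusted p = 0.0190). Il4ra, a chain of the IL-4 receptor, went from 27.0 and 29.8 to 11.1 and 15.9 CPM (log2 -1.07 ± 0.20, adjusted p = 0.0104). Icam1 lost its call without wild-type DMSO replicate 1 (adjusted p = 0.204) or either wild-type DMXAA library (0.0606 and 0.230), and Il4ra without wild-type DMXAA replicate 1 (0.219). Under DMSO this list had a median of 0.73 between knockout-labelled and wild-type islets, beside 0 over all genes. There was 1 call by edgeR, Cebpd (log2 1.29 ± 0.20, adjusted p = 0.0248), against 0.223% of all genes. Limma-voom also called 1 of the 15, while DESeq2 called 6 (0.965% of all genes it tested), namely Bcl3, Junb, Cebpb, Cebpd and Lcn2 higher and Osmr lower. At an unadjusted p under 0.05 edgeR had 8 of the 15, against 12.3% of all genes. Cebpd, an acute-phase transcription factor, was at 91.6 and 112 CPM in wild-type DMSO and 243 and 254 CPM in knockout-labelled DMSO libraries. Lymphocyte markers were also higher in knockout-labelled DMSO libraries, as given above, and their part was not tested.

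Transcription factors that act on cytokine promoters (16 genes, all tested) had 4 rises, 0 falls and a median of 0.38 with DMXAA in wild-type islets. Over all genes 1.11% rose and 0.375% fell. Irf1 rose from 38.6 and 50.9 to 165 and 145 CPM (log2 1.79 ± 0.16, edgeR adjusted p = 2.47e-05) and Irf7 from 23.7 and 31.7 to 67.4 and 92.4 CPM (1.53 ± 0.21, 0.00128). Atf3, a stress factor that restrains Il6, went from 39.8 and 36.1 to 76.0 and 82.0 CPM (1.06 ± 0.14, 0.00102). Irf9 rose from 41.6 and 46.3 to 63.9 and 88.7 CPM (0.80 ± 0.17, 0.0310), a call lost in 4 of the fits without 1 library, namely that without wild-type DMSO replicate 1 (0.231), that without wild-type DMXAA replicate 2 (0.526) and those without either knockout-labelled DMSO library (0.0776 and 0.0792). The NF-kB subunit genes Nfkb1, Nfkb2, Rel, Rela and Relb had log2 fold changes of 0.13, 0.49, 0.18, 0.34 and 0.34, none called.

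A list of 11 genes, regulators of cytokine mRNA decay and Tnip1, which is not known as one, was tested in full. With DMXAA in wild-type islets it had 3 rises, Tnip1 among them, and 0 falls (median 0.26). Shares over all genes were 1.11% and 0.375%. Zfp36, tristetraprolin, binds AU-rich elements of cytokine mRNAs and speeds their decay, and it rose from 35.6 and 47.9 to 133 and 136 CPM (log2 1.69 ± 0.17, edgeR adjusted p = 5.23e-05). Its relative Zfp36l2 rose from 30.3 and 46.7 to 62.3 and 80.4 CPM (0.89 ± 0.20, 0.0438), a call kept in 1 of the 8 fits that left out a library, that without wild-type DMSO replicate 2, while the other 7 gave an adjusted p of 0.0602 to 0.464. Tnip1, a binding partner of the NF-kB brake A20, rose from 28.1 and 25.0 to 47.6 and 43.4 CPM (0.78 ± 0.15, 0.0175, but 0.250 and 0.105 without wild-type DMXAA replicate 1 or 2). Zc3h12a, regnase-1, which degrades Il6 mRNA, was not called (0.77 ± 0.32, adjusted p = 0.384).

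In knockout-labelled islets edgeR called 0 genes of these 6 lists with DMXAA, against 0.375% of all genes. DESeq2 called 1, Lcn2, lower. Limma-voom called 0 as well, but it called 0 of all genes in this contrast. At an unadjusted p under 0.05, which 7.3% of all genes passed, edgeR had 1 of 8 other ligands and 3 of 13 receptor chains. It had 2 of 19 JAK, STAT and SOCS genes and 3 of 15 STAT3 targets. The lists share some genes, and Osmr is counted here both as a receptor chain and as a STAT3 target. The transcription factors had 5 of 16, with 11 of the 16 log2 fold changes negative, and the mRNA decay list had 1 of 11. The list medians lay between -0.09 and 0.12.

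**Figure D4:**
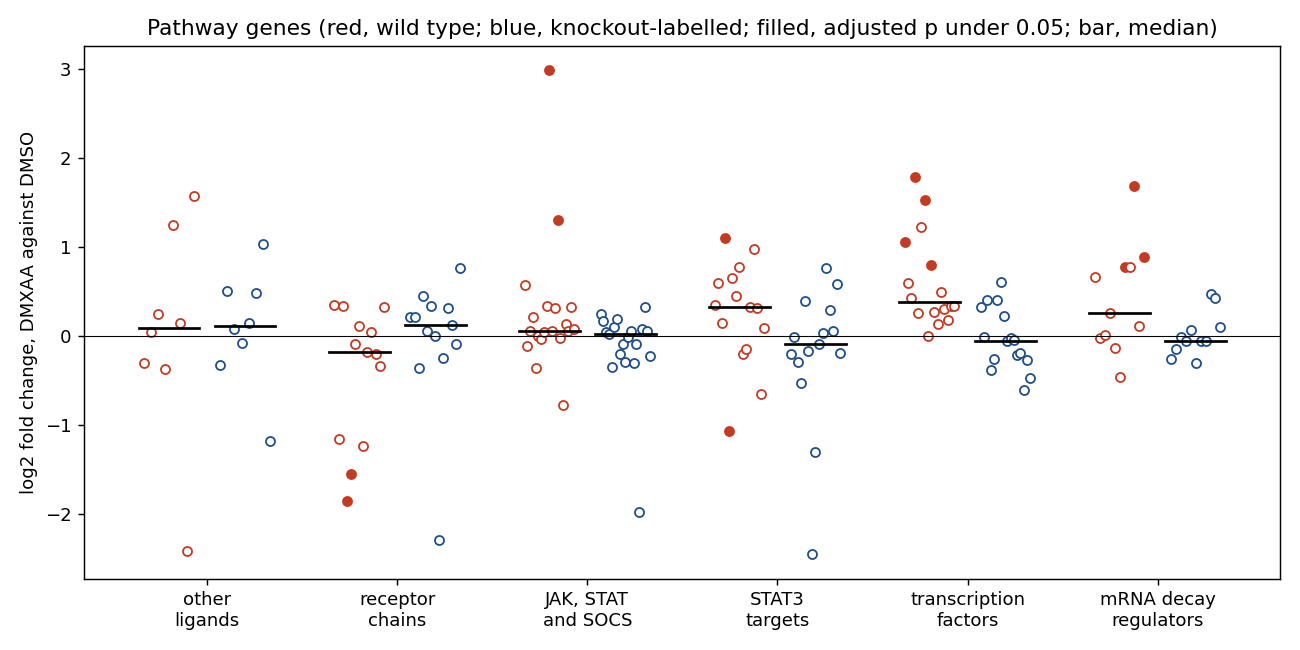
Log2 fold change of DMXAA against DMSO for the tested genes of 6 lists, in wild-type (red) and knockout-labelled (blue) islets, with filled points for an adjusted p under 0.05 and bars for list medians. Filled points occur in 5 of the wild-type columns, with Socs1 the highest at 2.99 and Csf2rb the lowest at -1.86.

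Among 14424 genes with a mean of at least 1 CPM, those whose log2 CPM over the 8 libraries was most like Il6 were Bmp2 (Pearson r = 0.98), Parp9 (0.96), Sat1 (0.96) and Pfkfb3 (0.95). Bmp2, a secreted growth factor, was at 1.58 and 1.38 CPM with DMSO and 3.12 and 5.31 with DMXAA in wild-type islets, and 1.47 and 1.53 with DMSO and 2.32 and 1.81 with DMXAA in knockout-labelled islets. For Il15 they included Iigp1 (r = 0.98), Mx1 (0.98) and H2-Q4 (0.97), genes known to be induced by interferon. Mx1 was at 4.997 and 3.20 CPM in wild-type DMSO, 86.3 and 67.5 CPM in wild-type DMXAA and at most 4.45 CPM in knockout-labelled libraries. Among the cytokines tested, Il6 was most like Csf1 (r = 0.88) and least like Il11 (0.08), and Il15 was most like Il6 (0.83). All libraries of a group share their treatment, so these coefficients describe 8 points in 4 groups and carry no test.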

How the data were processed

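Poly(A) RNA of 8 islet libraries was measured, and the deposited files hold raw counts per Ensembl gene, whole numbers that the authors did not normalize. HISAT2, HTSeq and mm10 are named, per the submitters' processing notes, with no version, and for the strand setting and annotation release the sources used here give nothing. Symbols were found for 54409 of 54532 identifiers, and exon lengths came from GENCODE on the same build.

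Genotype and treatment labels defined the groups. The 2 libraries of each group differed by more than sampling noise (chi-square per degree of freedom 6.83 to 53.8), so none was a copy. edgeR 4.0.16 (R 4.3.3) kept 17055 genes by filterByExpr, scaled by TMM and fitted 1 coefficient per group to all 8 libraries (4 residual degrees of freedom, biological coefficient of variation 17.1%, newer quasi-likelihood form). CPM used the scaled library sizes. The SE is the absolute log2 fold change over the square root of F. Low genes were compared by group sums with exact 95% intervals, which cover counting error only, since PCR copies are not independent molecules.

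The cytokine genes and the gene lists were chosen with earlier results of these data known. Named pathway genes were up to 4 per list with the smallest p among those called in the wild-type treatment contrast, or 2 where none was. Values of further list members that describe receptors, STAT3 and its targets under DMSO, NF-kB subunits, Zc3h12a, Cebpd and Lcn2 were added after they were seen. One gene of the JAK and STAT list is not reported here and was left out of its counts. Steps were also tested on simulated data. Alternatives were DESeq2 1.42.0, limma-voom (limma 3.58.1), RLE and upper-quartile scaling, no filter, a stricter filter (1 CPM in 4 libraries), the older fit, only the libraries compared, a replicate block and leaving out each library. Same-numbered libraries were not treated as paired in the main fit. Their deviations from the group means had correlations of -0.14 to 0.12 between groups. The labels state no pairing, and these correlations cannot exclude one.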

Additional observations from a re-analysis of the deposited data

Results flagged for a closer look

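By the interaction test of edgeR, the DMXAA effect differed between genotype labels for 7 of the named pathway genes. It did so for none of the 7 cytokines tested. That test called 1.2% of all genes. By list it called 0 of the 8 other ligands tested, 1 of 13 receptor chains and 2 of 19 JAK, STAT and SOCS genes. It called 2 of 15 STAT3 targets, 1 of 16 transcription factors and 1 of 11 genes of the mRNA decay list. The values below are log2 differences, the effect in knockout-labelled minus that in wild-type islets. The 5 negative ones were Socs1 at -3.28 ± 0.60 (adjusted p = 0.0137), Irf1 at -2.19 ± 0.23 (0.000246), Icam1 at -1.63 ± 0.31 (0.0180), Stat2 at -1.62 ± 0.28 (0.0105) and Zfp36 at -1.22 ± 0.23 (0.0180). The 2 positive ones were Csf2rb at 2.32 ± 0.50 (0.0394) and Il4ra at 1.46 ± 0.27 (0.0147). These genes were named for their wild-type effect, which enters the same difference. In the same test, 6 of the 12 endothelial markers and 1 of the 4 dendritic cell markers tested were called, all with positive differences. Of the 12 macrophage and 10 fibroblast and stellate markers, 0 were called, with 10 and 10 positive differences. All 10 acinar and all 7 lymphocyte markers tested had negative differences, with 0 called. The part of these markers in the 7 named differences was not tested. Of the 8 fits that left out 1 library, all 8 called Irf1, 5 called Stat2 and Il4ra, 4 called Socs1 and Zfp36, 3 called Icam1 and 2 called Csf2rb.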

How the results depend on the processing

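In the wild-type treatment contrast 2 cytokines were called, 2 with DESeq2 (Csf1 and Il6 in place of Csf3), and 1 with limma-voom, the stricter filter (which left 5 to test, without Il15 and Csf3), the older fit or only the libraries compared. Leaving out 1 library gave 0 to 2. Between genotypes under DMXAA the count of 1 became 0 with limma-voom, the stricter filter, the older fit and only the libraries compared, and 0 to 2 without 1 library (the 2 include Il12b, which the filter admits only when a group is down to 1 library, through the one library that holds most of its reads). The interaction count of 0 was 0 to 1 without 1 library. The replicate block changed no call: 2 in the wild-type treatment contrast and 1 between genotypes under DMXAA. No treatment call was made in knockout-labelled islets, nor between genotypes under DMSO, in any alternative. Few genes at all were called there. Apart from leaving out 1 library, the all-gene count was 0 to 177 for the knockout-labelled treatment (64 in the main fit). Between genotypes under DMSO it was 7 to 159 (38 in the main fit). A count of 0 cytokines thus says little. Within a group that loses a library, the lone one is assumed to vary like the other groups.

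Without 1 library, wild-type list counts were 0 to 4 for receptor chains (2 with all), 0 to 5 for STAT3 targets (2) and 1 to 5 for the mRNA decay list (3). Over all genes the wild-type treatment count of 253 ran from 160 to 994 without 1 library, the most without wild-type DMSO replicate 2. Directions that turned did so for log2 values near 0 or split replicates. With limma-voom Lif between genotypes under DMXAA was 0.04, and -0.53 to 0.66 without 1 library. Without 1 library the ranges were -1.50 to 0.44 for Il11 in the wild-type treatment contrast. In the knockout-labelled treatment contrast they were 0 to 0.62 for Il6, -0.58 to 0.48 for Il15 and -0.53 to 0.31 for Il15ra. For the interaction they were -0.43 to 0.76 for Lif and -0.72 to 0.11 for Il15ra. Between genotypes under DMSO they were -0.12 to 0.10 for Il6, -0.49 to 0.18 for Lif, -0.84 to 0.22 for Il15 and -0.02 to 0.34 for Csf1. The cause was not tested. Depth limits Il12b, Il27, Csf2, Il15 and Csf3, at 0 to 45 counts a library.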
